A study of Mus musculus with 4 samples.

Results

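A block of chromosome 4 that is dense in KRAB zinc finger genes and their pseudogenes was followed in neural cultures with and without ZFP57. Members were the genes of the count table lying on chr4:144800000-148000000 (GRCm38) whose bulk counts summed to more than 8 over the 4 libraries. The region holds 107 annotated genes. Of these, 64 passed the count minimum and 43 did not. Members were thus chosen by position and by the bulk counts of the same libraries that are compared here. A gene with almost no counts in wild-type cells could therefore enter only through its *Zfp57*-/- counts. The counts just above the minimum were 11 for *Gm13162*, 11 for *Vmn2r-ps19* and 12 for *Platr16*, and those just below it were 6 for *Vmn2r-ps20*, 6 for *Gm13156* and 8 for *Gm13146*. The 43 genes outside held no coding gene, included 34 pseudogenes, and 22 of them had no count in any library.

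The cells are of a male hybrid ES cell line, JB1, with a JF1 mother and a C57BL/6 (B6) father. Wild-type JB1 cells and a *Zfp57*-/- line derived from JB1 were differentiated for 12 days in a defined medium (DDM), with 1 µM of the hedgehog inhibitor cyclopamine from day 2 to day 10, and there were 2 wild-type and 2 *Zfp57*-/- libraries of total RNA. All 4 libraries thus share the hybrid background, the medium and the inhibitor, and each genotype is 1 line, so that genotype and line cannot be told apart. ZFP57 is itself a KRAB zinc finger protein, which binds methylated imprinting control regions.

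KRAB zinc finger proteins bind DNA through arrays of zinc fingers. Their KRAB domain recruits KAP1 (TRIM28), which brings histone methyltransferase and heterochromatin proteins, and many of them silence retrotransposons. The genes arise by tandem duplication and sit in clusters of near-identical copies, which makes their reads hard to place.

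By GENCODE type and by KRAB and zinc finger patterns in the translated coding sequences, the 64 members comprised 21 coding KRAB zinc finger genes, 27 pseudogenes, 11 other coding genes and 5 long noncoding RNAs. Of the 21, 20 had at least 2 finger patterns, and *Gm21411* had a KRAB pattern only. The numbers of finger patterns ran from 2 in *Zfp993* to 20 in *Gm13212*, with 15 in *Zfp534* and in *Rex2*.

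Sequences upstream of the start were available from RefSeq (GRCm38.p6) for 24 of the 64 members, 14 of them zinc finger genes. A search over these 14 promoters, made after the expression values were known, found a 15-base word, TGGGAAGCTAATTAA, in 11 of them. The search lengthened the most widely shared words as far as 11 promoters still held them. Over the 250 bases upstream of all genes, on both strands, the word occurred in 11 of 27025 promoters (0.0407%), and these were the same 11. This rarity is in part built in by the lengthening. Shorter words within the 15 bases occurred in 15 to 23 of the 27025 promoters, on the gene's strand. The promoters of *Zfp534*, *Zfp988*, *Rex2* and *Zfp984*, which carry the word, and of *Zfp933*, which does not, are shown to let the copies be compared, each read 5′ to 3′ on the gene's strand with the word in capitals. *Zfp534* lies upstream of the minus strand gene at chr4:147702632-147702881, *Zfp988* at chr4:147305354-147305603 on the plus strand, *Rex2* at chr4:147021600-147021849 on the plus strand, *Zfp984* at chr4:147809841-147810038 on the minus strand and *Zfp933* at chr4:147848419-147848668 on the minus strand.
Zfp534: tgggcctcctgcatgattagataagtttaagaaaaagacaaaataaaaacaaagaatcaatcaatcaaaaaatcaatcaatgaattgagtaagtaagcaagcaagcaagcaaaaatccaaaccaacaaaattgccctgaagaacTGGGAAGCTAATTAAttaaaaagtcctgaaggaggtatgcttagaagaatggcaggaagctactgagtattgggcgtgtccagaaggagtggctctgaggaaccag
Zfp988: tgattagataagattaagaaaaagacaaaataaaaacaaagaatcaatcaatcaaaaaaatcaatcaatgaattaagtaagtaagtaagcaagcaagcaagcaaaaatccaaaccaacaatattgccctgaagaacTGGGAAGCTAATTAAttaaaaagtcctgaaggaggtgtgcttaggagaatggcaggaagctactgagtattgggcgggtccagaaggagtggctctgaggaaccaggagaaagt
Rex2: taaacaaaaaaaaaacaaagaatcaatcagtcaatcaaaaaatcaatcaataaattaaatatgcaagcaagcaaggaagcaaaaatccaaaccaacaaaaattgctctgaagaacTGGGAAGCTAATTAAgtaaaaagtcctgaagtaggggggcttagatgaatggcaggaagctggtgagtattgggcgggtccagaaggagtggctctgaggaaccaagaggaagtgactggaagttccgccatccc
Zfp984: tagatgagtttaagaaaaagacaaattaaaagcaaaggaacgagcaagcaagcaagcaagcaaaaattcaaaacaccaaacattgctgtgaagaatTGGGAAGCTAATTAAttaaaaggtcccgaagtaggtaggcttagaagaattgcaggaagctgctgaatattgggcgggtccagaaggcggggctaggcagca
Zfp933: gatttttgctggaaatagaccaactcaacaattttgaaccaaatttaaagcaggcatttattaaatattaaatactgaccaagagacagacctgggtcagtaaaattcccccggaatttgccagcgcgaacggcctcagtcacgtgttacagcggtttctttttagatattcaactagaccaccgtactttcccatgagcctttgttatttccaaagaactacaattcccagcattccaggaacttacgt

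The upstream windows ranged from near copies to windows with little in common, with 40.4% to 99.6% identical bases (median 72.8%) over the 91 pairs of the 14 promoters. Those of *Zfp600* and *Rex2* were 99.6% identical over 250 bases and those of *Zfp988* and *Zfp534* 92.8%. Over the 55 pairs of promoters with the word the values ran from 52.4% to 99.6%, with a median of 79.2%. The 3 zinc finger promoters without it were those of *Zfp993*, *Zfp982* and *Zfp933*. The ZFP57 hexamer TGCCGC was in 0 of the 14 promoters (8.592% of all promoters hold it), the octamer ATGCAAAT in 0 of 14 (1.61% of all) and the GC box GGGCGG in 10 of 14 (32.936% of all). A match or its absence describes these letters in this window and no binding.

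The coding sequences are also shared. The following 125 bases, the length of 1 sequenced read, are identical in *Zfp986*, *Zfp987*, *Zfp989*, *Zfp988* and *Zfp534*, and are shown because a read that lies wholly within this stretch matches these 5 genes equally and can be placed only by its mate (in *Zfp534* at chr4:147675913-147676037, minus strand).
Shared window: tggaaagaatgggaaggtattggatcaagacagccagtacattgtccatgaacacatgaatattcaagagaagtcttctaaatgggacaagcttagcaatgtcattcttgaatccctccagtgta

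Since only uniquely aligned fragments were counted, the share of 125-base windows of each gene's annotated transcripts that occur in no other gene was computed. Its median was 100% over all genes tested and over the 222 KRAB zinc finger genes elsewhere, but 80.5% over the 64 members and 67.7% over the 20 zinc finger genes with fingers. In 16 members it was under 50%. *Zfp600* shared 2547 of its 4768 windows with *Rex2*. *Zfp987* shared 1325 of 2989 with *Gm8935*, which is not a member, and 745 with *Zfp534*. Counts of these genes therefore rest on the part of the gene that is unique, and fragments may be split between copies. The windows are of the reference sequence, so JF1 copies that differ from it or are absent were not examined. Alignments with more than 3 mismatches were not kept. The part of lost JF1 reads in the low wild-type counts was not tested.

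The bulk counts of the 4 libraries summed to between 7663520 and 10337082, and 19995 genes with more than 8 counts were tested. *Zfp57* itself had 392 and 249 wild-type and 158 and 144 *Zfp57*-/- counts, log2 fold change -1.19 ± 0.32 (SE), and the count covers the gene as annotated and not only the deleted part. All 20 pluripotency markers were measured and 18 were higher in the *Zfp57*-/- cells, with a summed level of 263 and 396 CPM (counts scaled to a common library size) in wild-type and 2954 and 2815 CPM in *Zfp57*-/- libraries; *Nanog* and *Dppa3* were at 0 in both wild-type libraries, and *Pou5f1* had 1 and 6 counts against 2747 and 2286. Of 15 neural markers 11 were lower, and their summed level was 1856 and 2251 CPM against 409 and 365 CPM, so markers of the labelled cell type, neural precursors, were lower in the *Zfp57*-/- libraries. Endo-mesoderm markers split (1 of 10 higher, 2 lower, summed levels of 683 and 899 against 777 and 1060 CPM), and *Zscan4e* was the only one of 10 two-cell-like genes tested, with 0, 0, 6 and 4 counts. The part of these marker differences in the results on the cluster was not tested, and fewer cells of a type and less RNA per cell cannot be told apart in such bulk samples.

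The members together took 0.0441% and 0.0392% of the counts in wild-type libraries, and 0.1095% and 0.1% in *Zfp57*-/- libraries. With edgeR's quasi-likelihood test, adjusted over all genes tested, 41 of the 64 members were higher in *Zfp57*-/- cells, where 13% of all genes were. By the same test 0 members were lower (14.6% of all genes), also at an unadjusted p under 0.05 and by DESeq2. Without wild-type replicate 1, 2 members were lower (*Dhrs3* and *Mfn2*), and without wild-type replicate 2 another 2 (*Vps13d* and *Zfp990*). The libraries of the genotypes did not overlap, with *Zfp57*-/- the higher, in 56 members (33.7% of all genes), and with wild-type the higher in 0 (32.6% of all genes). The median log2 fold change of the members was 3.04, or 2.77 when the 6 genes at 0 in both wild-type libraries were put at the bound that 3 counts per library allow, against -0.01 over all genes. These counts describe a list that its own counts helped to choose. Of the 64 members, 36 had at most 8 counts over both wild-type libraries and entered only with the help of their *Zfp57*-/- counts. Among the 28 members with more than 8 wild-type counts, chosen as a group after the values were seen, 16 were higher, where 11.9% of the 17538 genes with that many wild-type counts were, and the median log2 fold change was 1.38 against -0.10.

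**Figure D1:**
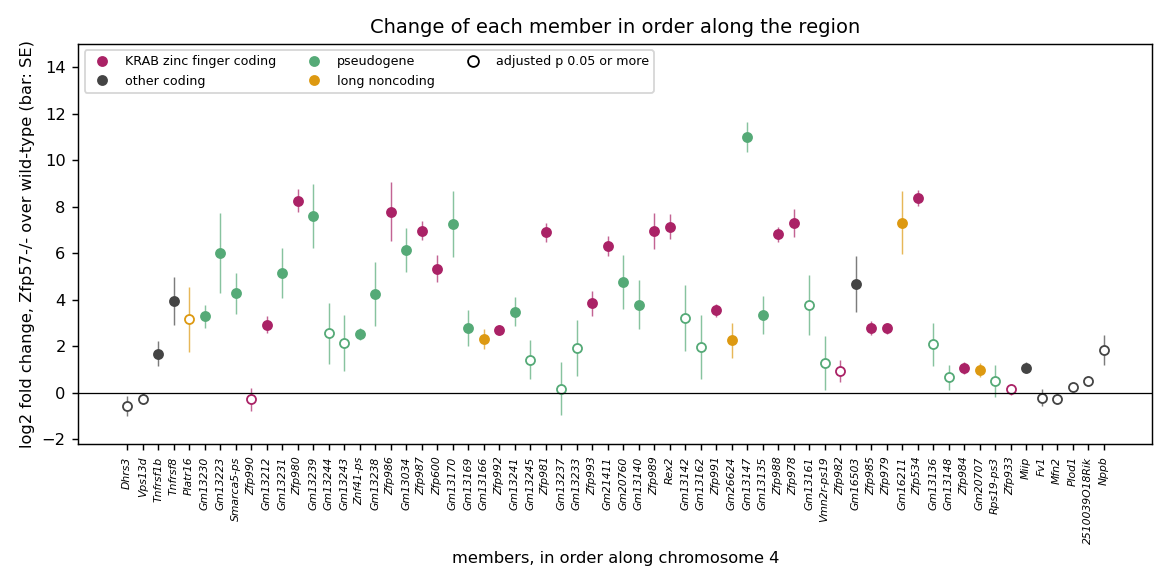
Log2 fold change of each of the 64 members (y axis, *Zfp57*-/- over wild-type, bars are SE) in order along chromosome 4 (x axis), coloured by class, with open symbols for members that did not pass adjusted p 0.05. The high values fill the middle of the order, and from *Zfp984* to *Nppb* no member exceeds 1.85. Heights of the 6 members at 0 in both wild-type libraries depend on the small count that the fit adds. The tallest point, *Gm13147*, is 1 of them.

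Among the 21 coding KRAB zinc finger genes, 18 rose (13% of all genes tested did) and 3 did not pass the test. Those that rose fell into groups by their wild-type level. In 8 genes each wild-type library held at most 3 counts. *Zfp534* had 2 and 2 wild-type and 705 and 731 *Zfp57*-/- counts, a ratio of 349 with a 95% counting interval of 136 to 1281 (adjusted p = 1.71e-06). *Zfp980* had 0 and 2 against 362 and 343, a ratio of 342 (94.4 to 2833). *Zfp987* had 2 and 2 against 236 and 315, a ratio of 134 (52.0 to 493). The replicates of these genes lay close together and far from the other genotype. *Zfp981* went from 3 and 2 to 350 and 294 counts, a ratio of 125 (53.3 to 387), *Rex2*, which is known from ES cells, from 1 and 1 to 175 and 152, a ratio of 159 (43.6 to 1317), and *Zfp978* from 0 and 2 to 197 and 162, a ratio of 174 (47.9 to 1445). *Zfp989* had 1 and 0 against 83 and 77 counts, a ratio of 155 (27.5 to 6176). *Zfp986*, at 0 in both wild-type libraries, had 25 and 31 counts and was at least 8.90-fold higher. These intervals cover counting error only, and the bound was taken against 3 counts in each wild-type library. The adjusted p of these 8 genes was at most 0.00216.

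In 4 zinc finger genes the wild-type libraries held 7 to 10 counts in all. *Zfp988*, whose promoter is the closest to that of *Zfp534* among those shown, had 3 and 7 wild-type and 558 and 622 *Zfp57*-/- counts, a log2 fold change of 6.81 ± 0.33 (SE; adjusted p = 1.87e-06, edgeR). *Gm21411* had 5 and 2 against 316 and 281 (6.31 ± 0.43), *Zfp600* 6 and 1 against 160 and 145 (5.33 ± 0.58) and *Zfp993* 3 and 6 against 70 and 65 (3.84 ± 0.55). All 4 thus had few counts in wild-type cells and were clearly counted in both *Zfp57*-/- libraries. A low count of uniquely aligned fragments does not show that a gene was silent. The values of *Zfp600* and *Rex2* are uncertain relative to each other, since more than 50% of the windows of *Zfp600* are found in *Rex2*. In *Zfp993* only 33.9% of the windows are unique.

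Another 6 zinc finger genes were already counted in wild-type cells and rose by less. *Zfp992* went from 107 and 124 counts to 776 and 777 (log2 fold change 2.70 ± 0.21, adjusted p = 1.74e-05) and *Zfp979* from 115 and 108 to 773 and 825 (2.77 ± 0.23, adjusted p = 2.63e-05). *Zfp991* rose from 18 and 27 to 267 and 273 (3.54 ± 0.29), *Zfp985* from 30 and 35 to 250 and 210 (2.77 ± 0.29) and *Gm13212* from 17 and 17 to 124 and 145 (2.92 ± 0.37). *Zfp984* was the smallest of these changes, with 169 and 143 counts against 350 and 333 (1.06 ± 0.25, adjusted p = 0.0128), and it lost the call without *Zfp57*-/- replicate 1 (adjusted p = 0.109). In each of the 6 the genotypes did not overlap. Only 34.7% of the windows of *Zfp991* are unique, and 1495 of its 2799 are shared with *Znf41-ps*.

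The 3 zinc finger genes that did not pass were *Zfp990*, the first of the 21 in order, *Zfp933*, the last, and *Zfp982*. *Zfp933* had 195 and 243 wild-type and 270 and 229 *Zfp57*-/- counts (log2 fold change 0.15 ± 0.22, adjusted p = 0.667), and its replicates overlapped. *Zfp982* had 23 and 22 against 37 and 53 (0.93 ± 0.48, adjusted p = 0.179, or 0.0403 without wild-type replicate 1). *Zfp990* had 130 and 51 against 60 and 103 (-0.29 ± 0.51, adjusted p = 0.712), and its direction turned on a single library, being 0.78 without wild-type replicate 1 (adjusted p = 0.0498) and -0.91 without wild-type replicate 2 (0.00225). A p above the threshold does not show that these genes were alike in both genotypes.

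The 21 coding KRAB zinc finger genes were also ranked among themselves on a per-length scale (CPM per kb of exon). The highest of them in *Zfp57*-/- cells was *Gm21411*, at 45.2 and 38.3 CPM per kb, followed by *Zfp534* (26.2 and 25.9), *Zfp988* (21.4 and 22.7) and *Zfp979* (20.2 and 20.5). *Zfp988* was above *Zfp979* in both libraries, by an amount close to the gap between its own replicates, and *Gm21411* stood above the next gene in both libraries. In wild-type cells the order of these 21 genes was another one. *Zfp984* (7.19 and 4.69 CPM per kb) and *Zfp933* (5.66 and 5.43) were at the top and overlapped, *Zfp990* (4.6 and 1.39), *Zfp979* (3.46 and 2.51) and *Zfp992* (2.91 and 2.60) followed with overlapping values, *Zfp990* being the lowest of these in wild-type replicate 2, and *Zfp534* was at 0.08 on average. Lengths are whole exon lengths, so genes with few unique windows read too low on this scale.

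**Figure D2:**
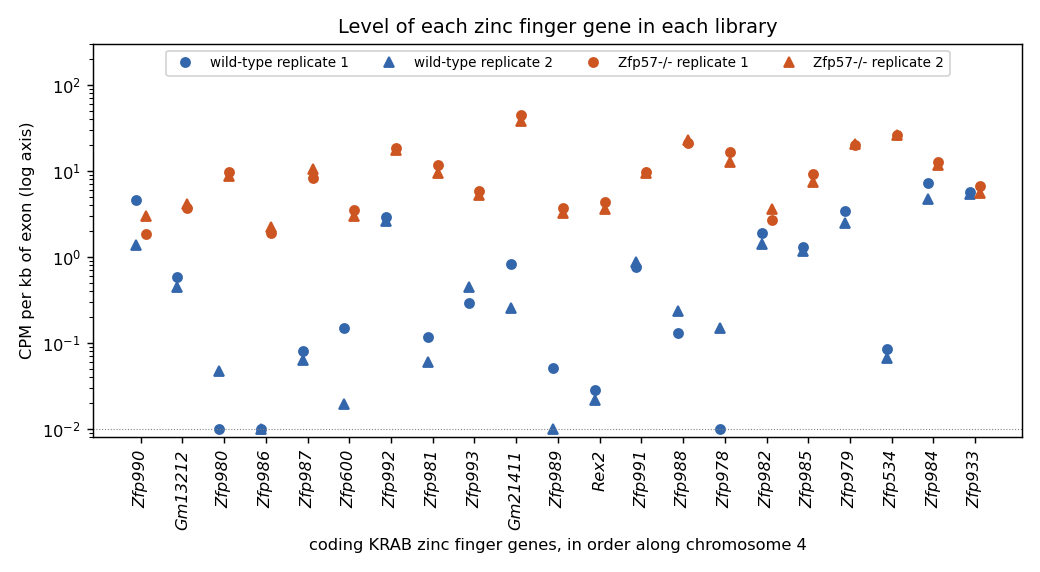
Level of the 21 coding KRAB zinc finger genes in each of the 4 libraries, as CPM per kb of exon on a log axis, with the genes in order along chromosome 4 and values under 0.01 drawn at the dotted line. Points of the genotypes are apart in every gene except *Zfp990* and *Zfp933*.

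Pseudogenes and noncoding RNAs of the region were mostly scarce. Of the 27 pseudogenes 15 were higher in *Zfp57*-/- cells, where 13% of all genes tested were. The median log2 fold change of the 27 was 3.28, or 2.78 with those at 0 in wild-type at their bound. Of the 27, 22 had at most 8 wild-type counts in all and passed the count minimum with the help of their *Zfp57*-/- counts. Over both *Zfp57*-/- libraries 23 stayed under 100 counts. The other 4 were *Znf41-ps*, *Gm13147*, *Gm13230* and *Gm13241* (the last pair named after their values were seen, with 142 and 116 counts over both *Zfp57*-/- libraries). *Gm13147* had 0 and 0 wild-type and 254 and 266 *Zfp57*-/- counts, which is at least 82.8-fold higher (adjusted p = 8.42e-06), and 95% of its windows are unique. *Znf41-ps*, a zinc finger pseudogene, went from 47 and 46 to 266 and 292 counts (2.52 ± 0.27). Only 27.4% of its windows are unique and 1495 of 2289 are shared with *Zfp991*, so that reads of the shared part cannot be assigned to either gene. *Gm13239* had 32 and 17 and *Gm13170* 24 and 14 counts in *Zfp57*-/- cells against 0 in both wild-type libraries (at least 7.86-fold and 6.09-fold higher). Both lie on the strand and within the span of a longer zinc finger gene, *Gm13239* in *Zfp980* and *Gm13170* in *Zfp600*, so reads of unspliced transcripts of the longer gene cannot be told apart from their own. Of the 5 long noncoding RNAs 4 were higher (13% of all genes tested). *Gm16211*, just beyond the 3′ end of *Zfp534* on the same strand, had 0 and 0 against 18 and 22 counts (at least 6.35-fold), and *Gm20707*, which overlaps *Zfp984* on the same strand, had 59 and 67 against 131 and 128 (0.99 ± 0.29, adjusted p = 0.0315, and 0.324 or 0.233 without one or the other *Zfp57*-/- library).

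The region also holds 11 coding genes that are no zinc finger genes, of which 4 were higher (13% of all genes tested). Named here after their values were seen, these were *Miip*, an inhibitor of cell migration, with 122 and 143 counts against 317 and 264 (1.09 ± 0.24, adjusted p = 0.0079), the TNF receptor genes *Tnfrsf1b* with 11 and 13 against 45 and 35 (1.68 ± 0.53) and *Tnfrsf8* with 0 and 2 against 19 and 16, and *Gm16503* with 1 and 0 against 23 and 10. All 4 lost the call without *Zfp57*-/- replicate 1 (adjusted p = 0.174 for *Miip*, 0.389 for *Tnfrsf1b*, 0.0573 for *Tnfrsf8* and 0.103 for *Gm16503*), and *Tnfrsf1b* also without replicate 2 (0.183). The mitochondrial fusion gene *Mfn2* had 336 and 580 against 411 and 356 counts (-0.27 ± 0.22), the lipid transfer gene *Vps13d* 1172 and 1114 against 1090 and 924 (-0.25 ± 0.22), the lysyl hydroxylase gene *Plod1* 346 and 495 against 452 and 567 (0.24 ± 0.20) and *2510039O18Rik* 274 and 474 against 515 and 562 (0.51 ± 0.21), none of which passed. *Mfn2* passed without wild-type replicate 1 (adjusted p = 0.00832), and *Vps13d* (0.00264) and *2510039O18Rik* (6.3e-05) without wild-type replicate 2. The natriuretic peptide gene *Nppb* had 4 and 16 against 38 and 34 counts and just missed the threshold (1.85 ± 0.63, adjusted p = 0.0551), which it passed without either wild-type library (0.0475 and 0.000495). The class as a whole had a median log2 fold change of 0.51, against 5.33 for the zinc finger genes (3.84 with *Zfp986* at its bound); the difference between the classes was not tested.

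Other zinc finger genes give the scale. Of the 222 KRAB zinc finger genes elsewhere in the genome that could be tested, 38 were higher and 41 lower, with a median log2 fold change of -0.10. A second cluster, on distal chromosome 2, had 34 tested genes with a median of 0.50. Its genes were taken by position and by a name in Zfp or Gm, without a check for fingers. They can also be among the 222. Of these 34, 10 were higher and 0 lower, against 13% and 14.6% of all genes tested. *Gm14409*, with the smallest adjusted p there, had 22 and 27 counts against 208 and 174. The 119 tested genes within 5 Mb on either side of the chromosome 4 region had 19 higher and 17 lower genes and a median of 0.08. Among 13 tested KRAB zinc finger genes listed for their known roles, 5 were higher and 1 lower. *Zfp459* had 6 and 3 counts against 511 and 461 (6.67 ± 0.38) and *Zfp819* 6 and 4 against 237 and 151 (5.20 ± 0.47), so large changes also occurred in zinc finger genes outside the cluster, while *Zfp809*, known for silencing murine leukaemia virus, had 251 and 366 against 366 and 422 (0.32 ± 0.20). Of 18 genes of the KAP1 and DNA methylation pathway 7 were higher. The KAP1 gene *Trim28* had 3717 and 6670 against 10175 and 9404 counts (0.90 ± 0.22, adjusted p = 0.0128), and the DNA methyltransferase genes *Dnmt3b* (196 and 324 against 2018 and 2449) and *Dnmt3l* (2 and 8 against 1031 and 999) rose by 3.08 ± 0.22 and 7.60 ± 0.35.

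**Figure D3:**
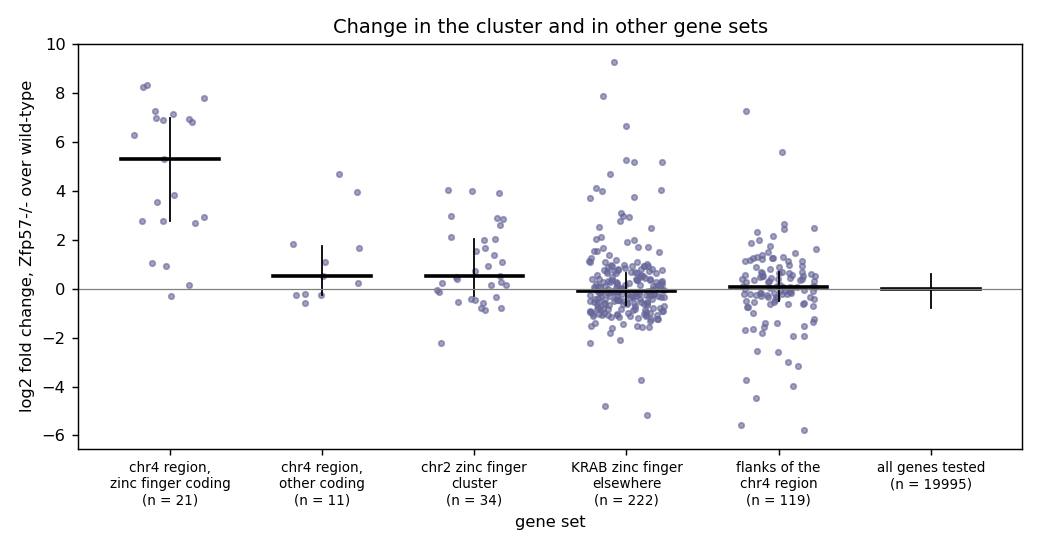
Log2 fold change of single genes (points) in 6 gene sets, with the median as a thick line and the quartiles as a thin one, and with points left out for all 19995 genes tested. The zinc finger genes of the chromosome 4 region have a median of 5.33 (3.84 with the gene at 0 in wild-type at its bound), but 10 of the 21 had at most 8 wild-type counts and passed the count minimum through *Zfp57*-/- cells, and the 11 others have a median of 2.77. The other sets have medians between -0.10 and 0.51.

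The promoter sequences were set beside these values as a description. All 11 genes whose promoter holds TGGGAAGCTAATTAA were higher in *Zfp57*-/- cells, where 13% of all genes tested were. Their log2 fold changes lay between 1.06 (*Zfp984*) and 8.36 (*Zfp534*). Of the 11, 6 had at most 8 counts over both wild-type libraries and passed the count minimum with the help of their *Zfp57*-/- counts. Of the 3 zinc finger genes whose promoter lacks the word, *Zfp993* rose and *Zfp982* and *Zfp933* did not pass. Genes with fingers but without a RefSeq promoter are not covered. Of these, *Zfp978*, *Zfp986*, *Zfp989*, *Zfp991* and *Zfp992* rose and *Zfp990* did not pass. With or without a known word, 18 of the 21 coding KRAB zinc finger genes of the region rose. Genes with the same word had wild-type levels from near 0 (*Zfp534*, *Rex2*) to more than 100 counts per library (*Zfp979*, *Zfp984*). Because the word was found by searching the 14 promoters themselves, with the expression values known, no test was made of it.

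Alleles could be told apart for few members. The allele-specific table gives fragments that carry a JF1 or a B6 variant. Over the whole libraries allelic fragments came to between 36.1% and 37.0% of the bulk count, but for the members to between 3.38% and 3.91%. In 34 members no allelic fragment was counted in any library, among them 10 of the 21 zinc finger genes, including *Zfp534* and *Zfp992*. Over all members, 93.9% and 94.2% of the allelic fragments were JF1 in the wild-type libraries and 66.7% and 70.1% in the *Zfp57*-/- libraries.

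Only 4 members had the 10 scaled allelic counts needed in both libraries of each genotype, and all 4 were JF1-biased in wild-type cells, where 8.82% of all genes tested were, and 0 were B6-biased there by edgeR (2.97% of all), unadjusted or by DESeq2. *Zfp979* had 29 and 24 JF1 and no B6 fragments in wild-type (0 of 53, which allows a B6 share of up to 5.66%) and 127 and 123 JF1 with 18 and 18 B6 fragments in *Zfp57*-/- cells. *Zfp933* had 9 and 12 JF1 with 0 and 1 B6 fragments in wild-type, and 9 and 12 JF1 with 10 and 13 B6 in *Zfp57*-/- cells. *Vps13d* had 23 and 32 JF1 with 1 and 0 B6, and then 12 and 9 JF1 with 12 and 10 B6. *Mfn2* had 20 and 31 JF1 with 0 and 1 B6, and then 15 and 17 JF1 with 6 and 4 B6. Wild-type cells thus gave almost no B6 fragments at these 4 genes, and *Zfp57*-/- cells gave some at each. The allele term differed between genotypes in all 4 (15.5% of all genes tested), by -5.53 on the log2 scale in *Vps13d* (adjusted p = 3.89e-05), -4.97 in *Zfp979* (0.00736), -4.23 in *Zfp933* (0.0112) and -3.72 in *Mfn2* (0.0337). With either wild-type library left out 1 of these calls was left.

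In *Zfp57*-/- cells 9 members could be tested, and 3 of them were JF1-biased (4.62% of all genes tested): *Zfp985* with 17 and 23 JF1 and no B6 fragments (0 of 40, which allows up to 7.5% B6), *Zfp979* with a JF1 share of 0.87 ± 0.002 (SD, n = 2) and *Mfn2* with 0.76 ± 0.067. By edgeR 0 of the 9 were B6-biased (4.35% of all), also unadjusted and by DESeq2. *Zfp989* (12 and 18 JF1, 7 and 4 B6) and *Zfp991* (10 and 7 JF1, 11 and 14 B6) did not pass. *Rex2* had 28 JF1 and no B6 fragments in *Zfp57*-/- cells, too few per library for the test. Of the windows of *Zfp985* 99.8% were unique and of those of *Rex2* 32.7%, and the part of unplaced reads in these shares was not tested.

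Each allele was also compared between genotypes on its own. The JF1 allele was higher in *Zfp57*-/- cells in 3 of the 9 members (12.9% of all genes tested), *Zfp979* (log2 change 2.17, adjusted p = 0.000614), *Zfp985* and *Zfp989*, and the B6 allele was higher in 7 (18.8% of all genes). Of the 9, however, 5 (*Dhrs3*, *Zfp989*, *Zfp991*, *Zfp985* and *Nppb*) reached the allelic count minimum in *Zfp57*-/- cells only, which favours a call in that direction. Among the 4 that reached it in both genotypes, JF1 was higher in 1, *Zfp979* (12.2% of the 10024 genes that did so), and B6 in all 4 (18.4%). By edgeR 0 members passed in the lower direction for either allele (16.9% of all genes for JF1 and 14.8% for B6), with *Vps13d* below 0.05 unadjusted for JF1 and 0 by DESeq2. In *Zfp979* both alleles therefore rose, JF1 from 53 to 250 and B6 from 0 to 36 fragments. In *Zfp933*, JF1 had 21 fragments in each genotype while B6 went from 1 to 23, next to a bulk count that did not pass the test. Leaving out either *Zfp57*-/- library brought these counts of higher alleles to 1 for JF1 and 2 for B6, and leaving out wild-type replicate 2 brought that for B6 to 4.

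**Figure D4:**
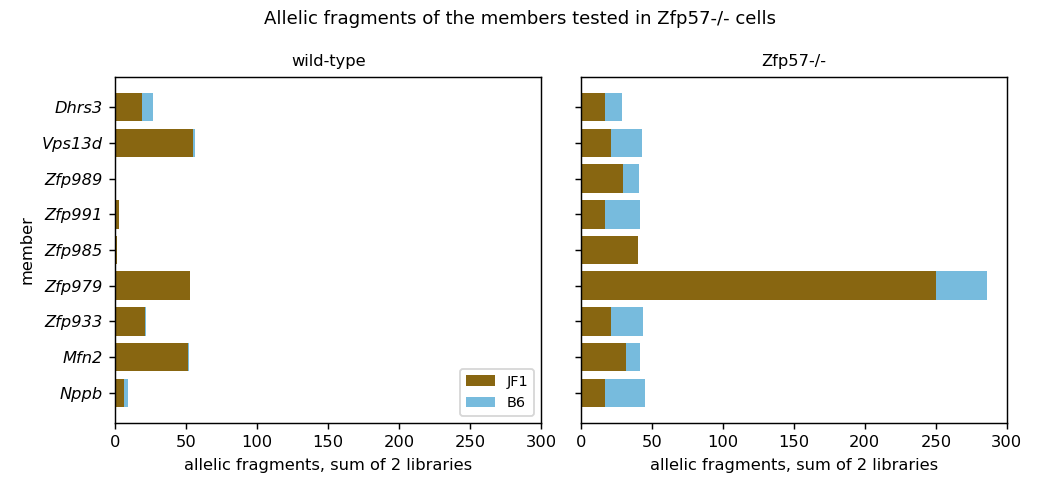
Allelic fragments (x axis, summed over the 2 libraries of a genotype) of the 9 members with enough allelic counts in *Zfp57*-/- cells, divided into JF1 and B6. In wild-type cells *Zfp979*, *Zfp933*, *Vps13d* and *Mfn2* have 21 to 55 JF1 and at most 1 B6 fragment each, *Zfp989*, *Zfp991* and *Zfp985* have at most 3 fragments of either allele, and *Dhrs3* and *Nppb* have both alleles. *Zfp979* has the most fragments in *Zfp57*-/- cells, 250 JF1 and 36 B6.

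Neighbouring genes show the allelic state around the cluster. Of 651 other genes of chromosome 4 with at least 20 allelic fragments in each genotype, 556 had a JF1 share between 0.3 and 0.7 in wild-type cells. At 26 of them it was 0.9 or more in wild-type and between 0.3 and 0.7 in *Zfp57*-/- cells. Of 75 such genes within 8 Mb of the centre of the region, 11 were at 0.9 or more in wild-type cells and 1 in *Zfp57*-/- cells. Between 0.3 and 0.7 were 51 in wild-type and 72 in *Zfp57*-/- cells. Most of the 11 lay from *Zbtb17* to *Kazn*, at -4.94 to -4.23 Mb from the centre. *Prdm2* (0.49 in wild-type) and *Pdpn* (0.46) lie between them and the region. *Gm13080* was at 1 in both genotypes. The 7 nearest genes beyond the end of the region had shares of 0.66 to 0.93 in wild-type and 0.36 to 0.58 in *Zfp57*-/- cells, and *Pramef12*, the nearest before its start, had 12 JF1 and 12 B6 fragments in wild-type. JF1 excess in wild-type cells was thus also measured at some genes outside the cluster. In bulk, the 26 genes with that shift had a median log2 fold change of -0.06, 4 of them higher and 3 lower (13% and 14.6% of all genes tested). The 535 genes with a share of 0.3 to 0.7 in both genotypes also had -0.06, with 64 higher and 94 lower. The 26 lie along much of the chromosome, from *Ggh* to *Cptp* (-126 and 9.47 Mb from the centre), and none is a member. What such a shift does within the cluster, and its part in the bulk values there, was not tested.

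**Figure D5:**
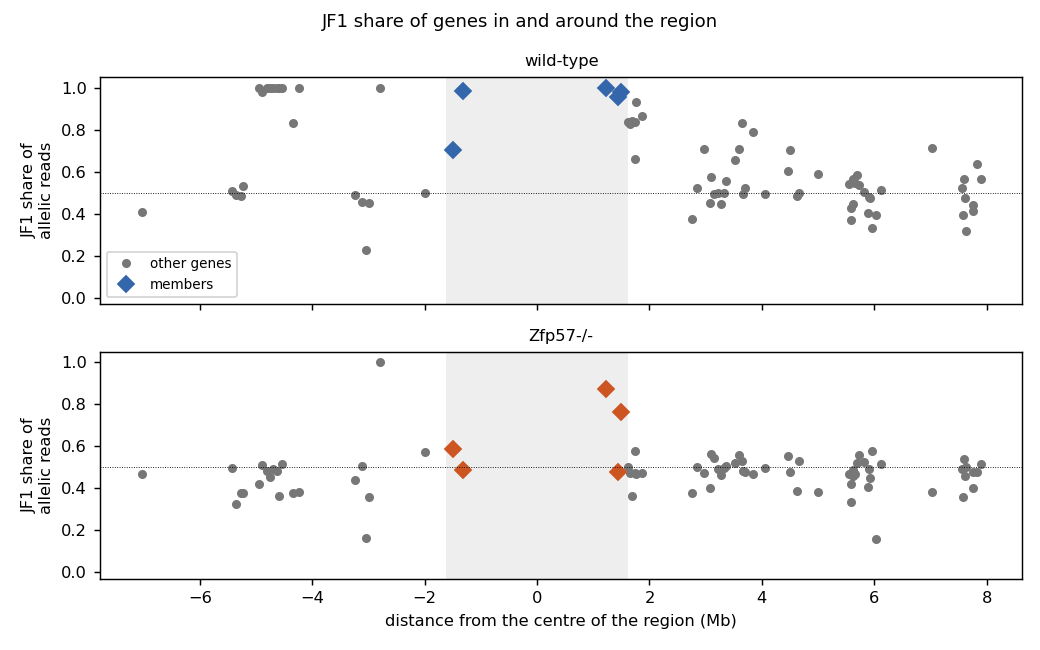
JF1 share of the allelic fragments (y axis, both libraries of a genotype summed) against the distance from the centre of the region (x axis, Mb), for genes of chromosome 4 with at least 20 allelic fragments in each genotype, with members as diamonds and the region in grey. In wild-type cells 4 of the 5 members shown are above 0.95, and in *Zfp57*-/- cells the 7 genes next to the end of the region are between 0.36 and 0.58.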

How the data were processed

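The authors trimmed paired 125-base reads of rRNA-depleted stranded libraries (Trimmomatic 0.36), mapped them with STAR 2.5.4a (GRCm38), kept unique alignments with at most 3 mismatches, and deposited per gene of GENCODE vM20 raw counts of fragments from featureCounts 1.6.0, reverse stranded. For the allele table, the authors aligned to a genome masked at variants, split reads into JF1 and B6 with SNPsplit and deposited raw allelic counts, all 8 columns checked to be whole numbers; 1 of these columns is recorded under another unit because its header was misread. No further normalization is in the files.

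Here, 19995 genes with more than 8 counts over the 4 libraries (the study's filter) were tested with edgeR 4.0.16 (R 4.3.3; TMM, robust quasi-likelihood, Benjamini-Hochberg over all genes, threshold 0.05). CPM are TMM-scaled, and totals per library were 7663520 and 10225378 (wild-type), 9545119 and 10337082 (*Zfp57*-/-). Allelic counts were fitted with 1 term for each library and 1 allele term for each genotype, for autosomal genes with at least 10 scaled allelic counts in both libraries, and a bias call needs a JF1 share of at most 0.33 or at least 0.67. Each allele was compared between genotypes with the bulk library sizes. Counting intervals are exact (Clopper-Pearson, 95%) and floors are 3 counts. Libraries are labelled biological duplicates. p-values measure the spread between these cultures of 1 line per genotype. Windows and coding sequences came from GENCODE M21, where the 107 genes have the same positions. The tests were also run on simulated data with changes of a fixed size. These did not copy genes or alleles near 0 in wild-type cells only, so they do not check such calls. Symbols matched 53859 of 55602 gene IDs. The members and lists were chosen with earlier results of these data known. Named are all members called Zfp with a number or *Rex2*, other members with 100 or more counts in a library, the 10 largest changes, genes at the count minimum, members with an allele call and up to 4 genes of each list, and a few other genes were named for a known role after their values were seen. Alternatives were DESeq2 1.42.0, its size factors, upper-quartile scaling, other filters, other allelic limits, a replicate block and each library left out. ZFP57 binding data and day 0 cells were not analysed here.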

Additional observations from a re-analysis of the deposited data

Results flagged for a closer look

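The allele term differed between the genotypes, by edgeR's test of the difference itself, in 4 members. The log2 ratio of JF1 to B6 was lower in *Zfp57*-/- than in wild-type cells by -5.53 in *Vps13d*, -4.97 in *Zfp979*, -4.23 in *Zfp933* and -3.72 in *Mfn2*. Each rests on 0 or 1 B6 fragments over both wild-type libraries, so the sizes depend on the small count that the fit adds. All 4 were also JF1-biased in wild-type cells.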

How the results depend on the processing

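The 41 members that were higher ranged from 37 (DESeq2) to 44 (replicate block) over the settings that kept all libraries, and from 29 to 44 when 1 library was left out, the lowest without *Zfp57*-/- replicate 1. A lone library is then assumed to vary like the others. Members lower ranged from 0 to 2, being 2 without either wild-type library. The median log2 fold change of 3.04 was 3.11 with DESeq2, 3.27 with at least 10 counts in 2 libraries, 2.97 with the replicate block, and 2.80 to 3.28 without 1 library. Settings added after seeing the data gave 29 higher members and a median of 2.77 over the members with at least 50% unique windows, and 16 and 1.38 over those with more than 8 wild-type counts.

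Genotype-by-allele differences were 4, but 2 with at least 20 allelic counts, 1 with DESeq2, and 1 to 4 without 1 library. The JF1 allele was higher in 3 members, in 1 with at least 20 allelic counts and in 1 to 4 without 1 library, and lower in 0 by edgeR (1 unadjusted, 0 by DESeq2), in 1 with at least 20 allelic counts and in 1 with the replicate block. The B6 allele was higher in 7 members and in 2 to 5 without 1 library. Bias counts stayed within 1.5 times the reported ones.

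Same-numbered libraries shared only a number. Their deviations correlated at 0.186 over 13224 genes, and the block gave 44 higher members. Of single members, only 4 reversed, each without a library, with log2 fold changes of -0.91 to 0.78 for *Zfp990*, -1.46 to 0.91 for *Gm13237*, -0.059 to 1.45 for *Rps19-ps3* and -0.016 to 0.29 for *Zfp933*. Few allelic fragments and shared windows limit what depth can add.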
